A study of Mus musculus with 4 samples.

Results

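The collagen genes of mouse colonic mucosa were taken as all genes whose symbol has the form Col, a number, the letter a and a second number in the deposited list of the first wild-type library. The rule gave 42 of the 19308 genes listed for all 4 libraries. RNA sequencing was run on total RNA of colon, with 2 wild-type (WT) libraries, whose genotype label is C57BL/6, and 2 Itch knockout (KO) libraries, whose genotype label is Itch KO. Itch encodes a HECT-type E3 ubiquitin ligase. The protocol calls the Itch-/- mucosa inflamed and does not say so of the WT mucosa, whereas the state label reads Inflammation for all 4 samples. Age, sex and the strain behind the knockout allele are not stated in the labels. No label ties the libraries of a group to different mice, and the p-values therefore reflect library-to-library spread, which may be technical.

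Collagens are secreted or membrane-bound proteins built from chains that wind into a triple helix. Fibrillar collagens form the tensile fibres of the submucosa and lamina propria and are made mainly by fibroblasts. Type IV collagens form the sheet-like network of basement membranes under epithelium and around vessels and muscle cells, and the remaining classes link, coat or anchor these structures. The comparison asked how the collagen transcripts of each class stood in Itch KO mucosa against WT mucosa.

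Total counts over the listed genes were between 8181193 and 12199709 per library. Itch (ENSMUSG00000027598) was measured at 204 and 183 CPM (counts scaled to a common library size with TMM factors) in WT versus 11.9 and 13.4 CPM in KO. The KO libraries were both below the WT libraries, with a log2 fold change of -3.93 and a standard error (SE) of 0.15. The epithelial markers Epcam, at 136 to 183 CPM, and Cdh1, at 285 to 387 CPM, were present in every library of this colonic tissue. WT replicate 1 stood apart: 10 markers of squamous epithelium, a tissue that lines the anal canal and skin, summed to 883 CPM there and to 15.6 CPM in WT replicate 2, 29.98 CPM in KO replicate 1 and 36.7 CPM in KO replicate 2. The colonic transcription factor gene Cdx2 stood at 24.3 CPM in WT replicate 1 against 115 to 140 CPM in the other libraries. WT replicate 2 also stood apart, with 4 adipocyte markers that summed to 188 CPM there and to 39.8, 49.4 and 73.1 CPM in WT replicate 1, KO replicate 1 and KO replicate 2. Collagen fold changes whose sign rests on either library are given with and without it below. For the ratios and for genes other than collagens, no fold change without a library is given.

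The clearest difference among the collagens was in type IV collagen: Col4a5 and Col4a6 were low in both KO libraries, at 5.32-fold and 12.3-fold lower means than in WT, while Col4a1 and Col4a2, the common type IV chains, overlapped between groups. The abundant fibrillar collagens overlapped between groups and had log2 fold changes between -0.23 and 0.48 for the 7 fibrillar genes above 20 CPM. For 23 of the 37 tested genes the log2 difference between the 2 KO libraries was larger than that between the groups. This count is given for the collagens only, with no share over all tested genes to set beside it.

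Of the 42 genes, 37 had enough counts to be tested. With edgeR's quasi-likelihood test and Benjamini-Hochberg adjustment over all 16956 tested genes, 0 collagens passed at 0.05. The same fit called 0% of all tested genes, and Itch itself had an adjusted p of 0.0922 there. At an unadjusted p below 0.05, 2 collagens were higher (Col11a2 and Col22a1) and 2 lower (Col4a5 and Col4a6), beside 10.2% of all tested genes higher and 9.52% lower. DESeq2, an alternative test, called 0 collagens higher and 3 lower (Col4a5, Col4a6 and Col17a1), where it called 5.47% of all tested genes higher and 5% lower. The groups did not overlap for 3 collagens that were higher in KO (Col11a2, Col22a1 and Col6a5) and 6 that were lower (Col4a5, Col4a6, Col4a3, Col28a1, Col9a2 and Col11a1), against 30% and 26% of all tested genes. The collagens thus had fewer genes with separated groups than the tested genes at large. In bulk tissue, fewer cells of a type and less RNA per cell cannot be told apart, and this holds for every level below.

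**Figure D1:**
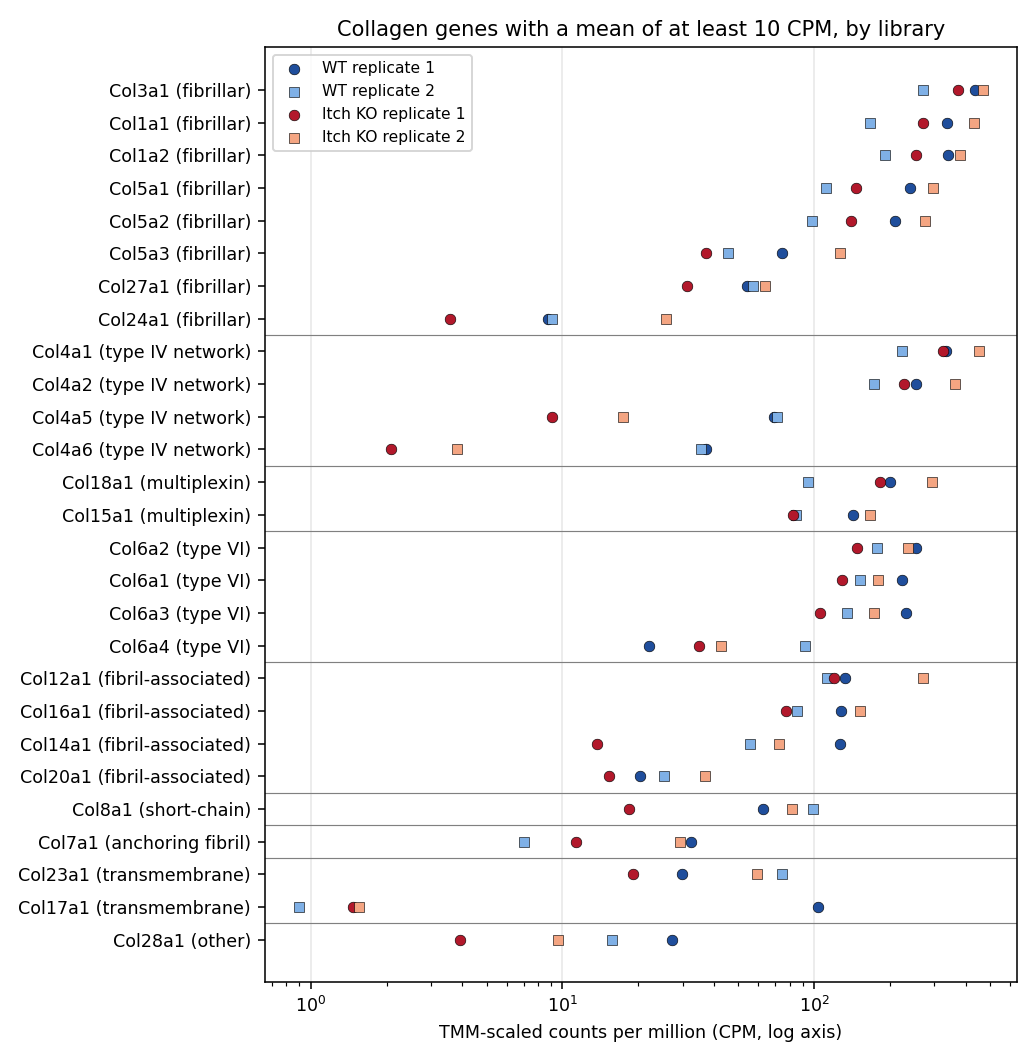
Level in each library of the 27 collagen genes whose mean reached 10 CPM, in TMM-scaled CPM on a log axis, ordered by class; each point is 1 library. Col4a5 and Col4a6 are the genes whose KO points lie farthest to the left of both WT points, and Col17a1 is high in WT replicate 1 only.

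Col4a5 (ENSMUSG00000031274, GRCm38 chromosome X, 141475385 to 141689234, plus strand) encodes a type IV chain found in the basement membranes of kidney, skin and smooth muscle. It was measured at 69.4 and 71.4 CPM in WT versus 9.09 and 17.4 CPM in KO. The group means were 70.4 ± 1.44 and 13.2 ± 5.84 CPM (SD, n = 2). Both KO libraries lay far below both WT libraries, which differed little from each other. The log2 fold change was -2.41 with an SE of 0.37, and the adjusted p of edgeR's quasi-likelihood test was 0.123.

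Col4a6 (ENSMUSG00000031273, GRCm38 chromosome X, 141165403 to 141474076, minus strand) encodes the chain that pairs with the Col4a5 product in the basement membranes of smooth muscle and skin. Its level was 37.2 and 35.6 CPM in WT versus 2.09 and 3.82 CPM in KO, from 349 and 437 counts against 17 and 37 counts. The groups were again well separated, with the KO replicate 1 library the lowest for both genes. The log2 fold change was -3.61 with an SE of 0.45, and edgeR gave an adjusted p of 0.123.

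The calls on this pair depended on the test. DESeq2 gave an adjusted p of 1.18e-06 for Col4a5 and 5.84e-10 for Col4a6, and kept both below 0.05 whichever library was left out. In edgeR with each library's trend on exonic length removed, the adjusted p was 0.0173 for Col4a5 and 0.0163 for Col4a6, and these were the 2 collagens called lower, beside 0.442% of all tested genes. That setting called 0 collagens higher, beside 2.24% of all tested genes. It lost both calls without KO replicate 1 (adjusted p = 0.209 for each) or KO replicate 2 (adjusted p = 0.371 for each), when it called 0 of all genes. Over all alternatives, leaving out libraries included, the log2 fold change ran from -2.97 to -1.95 for Col4a5 and from -4.14 to -3.12 for Col4a6. Without WT replicate 1, the library with squamous markers, the edgeR log2 fold changes were -2.41 and -3.56, beside -2.41 and -3.61 with it, and without WT replicate 2, the library with adipocyte markers, they were -2.39 and -3.65.

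The common type IV genes overlapped between groups, and Col4a3 was lower in both KO libraries at a low level. Col4a1 (ENSMUSG00000031502, chromosome 8, 11198423 to 11312826, minus strand) and Col4a2 (ENSMUSG00000031503, chromosome 8, 11312805 to 11449287, plus strand) encode the chains present in nearly all basement membranes. Col4a1 stood at 335 and 223 CPM in WT against 325 and 454 in KO, and Col4a2 at 254 and 173 against 227 and 363. For both genes the groups overlapped, with KO replicate 2 highest and WT replicate 2 lowest. Their log2 fold changes were 0.48 with an SE of 0.30 and 0.47 with an SE of 0.33. Col4a3, a chain of the kidney glomerulus, was at 3.09 and 4.07 CPM in WT versus 1.97 and 1.24 CPM in KO, so its groups were separated, with a log2 fold change of -1.16, an SE of 0.55 and an adjusted p of 0.324 in edgeR and 0.619 in DESeq2. Its log2 fold change was negative in every alternative, from -1.55 to -0.45, and Col4a4 was not tested.

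Within a library the 2 kinds of type IV chain therefore stood in different proportion. The summed CPM of Col4a5 and Col4a6 over that of Col4a1 and Col4a2 was 0.181 and 0.271 in WT versus 0.0202 and 0.0259 in KO, a log2 difference of -3.27. Col4a6 over Col4a5 was 0.537 and 0.499 in WT against 0.23 and 0.22 in KO. Both ratios were separated between groups, whereas Col4a1 over Col4a2 overlapped, at 1.32 and 1.29 against 1.43 and 1.25. With 2 libraries a group, an exact two-sided permutation test cannot go below p = 0.333, the value each separated ratio reached (0.444 after Benjamini-Hochberg adjustment over the 12 ratios computed). The ratios were chosen after the levels were seen. No gene held more than 9389 counts in any library, so counts look compressed at the upper end and the fold changes of genes with many counts per exonic kilobase may be understated. Among the collagens this bears on Col1a1, Col4a1, Col6a1, Col3a1 and Col4a2, the 5 above percentile 90 of that density, whose log2 fold changes lay between -0.29 and 0.48, and on the ratio of the low pair to Col4a1 and Col4a2. Per kilobase of the principal transcript, Col4a5 was at 10.6 and 10.9 CPM in WT versus 1.39 and 2.65 in KO, and Col4a6 at 5.60 and 5.36 against 0.314 and 0.575. Levels per kilobase for Col4a1 were 33.7 to 68.6 CPM over the 4 libraries, so it was the more abundant chain in all of them.

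**Figure D2:**
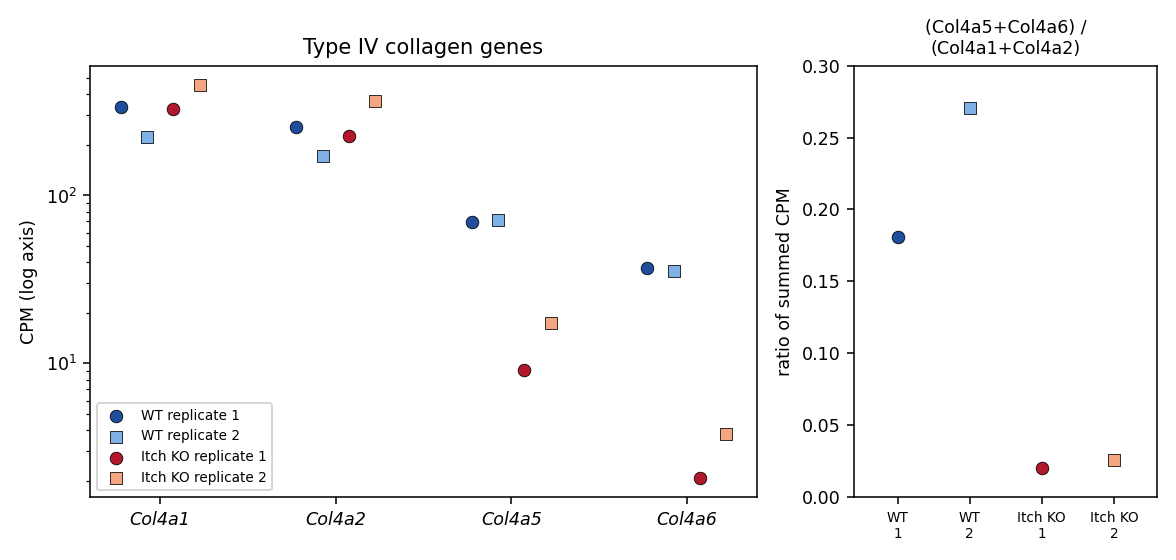
Left, level of 4 type IV collagen genes in each library, in CPM on a log axis; right, the summed CPM of Col4a5 and Col4a6 over that of Col4a1 and Col4a2 in each library; each point is 1 library. Col4a1 and Col4a2 overlap between groups, and Col4a5 and Col4a6 lie lower in both KO libraries, at 9.09 and 17.4 CPM and at 2.09 and 3.82 CPM.

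Smooth muscle makes Col4a5 and Col4a6, so its markers are given beside them. All 8 markers had a negative log2 fold change, with a median of -0.09 and a summed level of 1870 and 1221 CPM in WT against 907 and 1133 in KO, and none was at 0. Acta2, Tagln, Des, Cnn1 and Actg2 lay between -0.11 and -0.01 on the log2 scale and overlapped between groups. The other 3 markers were separated and lower in KO, as were 26% of all tested genes. Synpo2, an actin-binding protein gene of muscle, was at 382 and 186 against 60.7 and 118 CPM, a log2 fold change of -1.66 with an adjusted p of 0.207 in edgeR and 0.0028 in DESeq2. Myh11, the smooth muscle myosin heavy chain gene, was at 590 and 393 against 199 and 271 CPM, a log2 fold change of -1.07 with an adjusted p of 0.192 in edgeR and 0.0022 in DESeq2. Lmod1, which encodes leiomodin, was at 137 and 94.8 against 44.1 and 88.4 CPM, a log2 fold change of -0.81 with an adjusted p of 0.341 in edgeR and 0.24 in DESeq2. Of the 8 markers 6 were above percentile 90 of counts per exonic kilobase, where fold changes may be understated, and the 2 below it were Synpo2 and Lmod1. Col4a5 and Col4a6 together were 0.301 and 0.428 times the summed Des and Acta2 level in WT and 0.0417 and 0.0694 times in KO. Against Myh11 they were 0.181 and 0.272 times in WT and 0.0563 and 0.0782 times in KO. Against Synpo2, the marker with the most negative log2 fold change, they were 0.279 and 0.576 times in WT and 0.184 and 0.179 times in KO. Against the sum of all 8 markers they were 0.057 and 0.0876 times in WT and 0.0123 and 0.0187 times in KO. Each of these ratios was lower in both KO libraries than in both WT libraries. The log2 differences were -2.74, -1.74, -1.14 and -2.22 in the order given, so their size depended on the muscle transcripts chosen. The pair was singled out for its low KO levels, so a lower ratio to any less changed transcript followed from that choice. The part of smooth muscle content in the levels of the pair was not tested.

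The Col4a5 and Col4a6 genes lie head to head and are transcribed away from each other, with 1308 bases between their GENCODE starts and no shared exonic base. Col4a1 and Col4a2 lie the same way, with starts so close that they share 22 exonic bases. RefSeq promoter windows (GRCm38.p6, 250 bases before to 50 after the annotated start, found for 33 of the 42 genes) are shown for these 4 genes, because the pair that was low in KO can then be read beside the pair that was not. Each is printed 5' to 3' on its gene's strand, and capitals mark matches, on either strand, to the GC box GGGCGG or the CCAAT box CCAAT. The windows are chrX:141475169-141475468 (plus strand) for Col4a5, chrX:141474027-141474326 (minus strand) for Col4a6, chr8:11312777-11313076 (minus strand) for Col4a1 and chr8:11312555-11312854 (plus strand) for Col4a2.
Col4a5: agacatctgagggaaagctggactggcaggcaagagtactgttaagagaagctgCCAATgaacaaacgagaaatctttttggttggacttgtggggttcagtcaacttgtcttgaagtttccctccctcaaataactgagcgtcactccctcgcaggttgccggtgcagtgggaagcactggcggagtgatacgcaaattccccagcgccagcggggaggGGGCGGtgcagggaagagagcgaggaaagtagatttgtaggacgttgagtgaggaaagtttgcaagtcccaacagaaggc
Col4a6: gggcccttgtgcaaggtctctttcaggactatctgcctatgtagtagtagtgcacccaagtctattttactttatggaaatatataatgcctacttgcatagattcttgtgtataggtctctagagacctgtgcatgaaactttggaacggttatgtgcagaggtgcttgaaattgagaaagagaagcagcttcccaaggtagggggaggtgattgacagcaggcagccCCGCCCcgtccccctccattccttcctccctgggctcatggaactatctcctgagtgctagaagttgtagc
Col4a1: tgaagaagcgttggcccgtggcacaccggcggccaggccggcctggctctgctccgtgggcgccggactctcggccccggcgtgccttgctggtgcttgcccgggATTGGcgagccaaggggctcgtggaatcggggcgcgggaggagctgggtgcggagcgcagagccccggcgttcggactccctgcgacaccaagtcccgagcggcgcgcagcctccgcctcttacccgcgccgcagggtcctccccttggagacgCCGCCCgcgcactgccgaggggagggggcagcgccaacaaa
Col4a2: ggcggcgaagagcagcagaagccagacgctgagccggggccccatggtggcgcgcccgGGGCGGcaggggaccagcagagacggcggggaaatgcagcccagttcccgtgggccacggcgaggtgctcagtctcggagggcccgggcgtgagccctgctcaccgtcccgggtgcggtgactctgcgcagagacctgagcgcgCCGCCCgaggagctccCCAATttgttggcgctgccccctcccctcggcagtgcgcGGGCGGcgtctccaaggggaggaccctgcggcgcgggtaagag

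The Col4a1 and Col4a2 windows were rich in G and C, at 74% and 73.7%, with 37 and 33 CpG dinucleotides, and share 78 bases. The Col4a5 and Col4a6 windows had 52.7% and 48.3% G and C with 11 and 3 CpG. The medians over 32851 mouse promoter windows of the same length were 52.7% and 7. Col4a5 held 1 GC box and 1 CCAAT box, Col4a6 1 GC box, Col4a1 1 of each, and Col4a2 3 GC boxes and 1 CCAAT box. The GC box occurred in 35.7% and the CCAAT box in 37.4% of all windows on either strand. None of the 4 windows held TATAAA (in 13.6% of all windows) or the AP-1 letters TGANTCA (in 7.81%), and no base belonged to matches of more than 1 motif. These letter matches are a description of the windows, not binding sites.

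Col18a1 and Col15a1 encode the multiplexins, proteoglycan-like collagens of the basement membrane zone whose fragments include endostatin. Col18a1 was at 200 and 94.1 CPM in WT versus 183 and 294 CPM in KO, with a log2 fold change of 0.70 and an SE of 0.45. Col15a1 was at 143 and 84.9 CPM against 82.6 and 167 CPM, with a log2 fold change of 0.13. Both overlapped between groups, with WT replicate 2 or KO replicate 1 at the bottom and KO replicate 2 at the top. DESeq2 called Col18a1 higher when WT replicate 1 was left out (log2 fold change 1.34, adjusted p = 0.0055).

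Over the 7 tested basement membrane collagens, type IV and multiplexins together, 4 log2 fold changes were positive and 3 negative, with a median of 0.13 against 0.01 over all tested genes. The median was -0.20 without WT replicate 2 and -0.46 without KO replicate 2, so its sign rested on single libraries. Their summed level was 1043 and 686 CPM in WT versus 832 and 1300 CPM in KO, which overlapped.

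**Figure D3:**
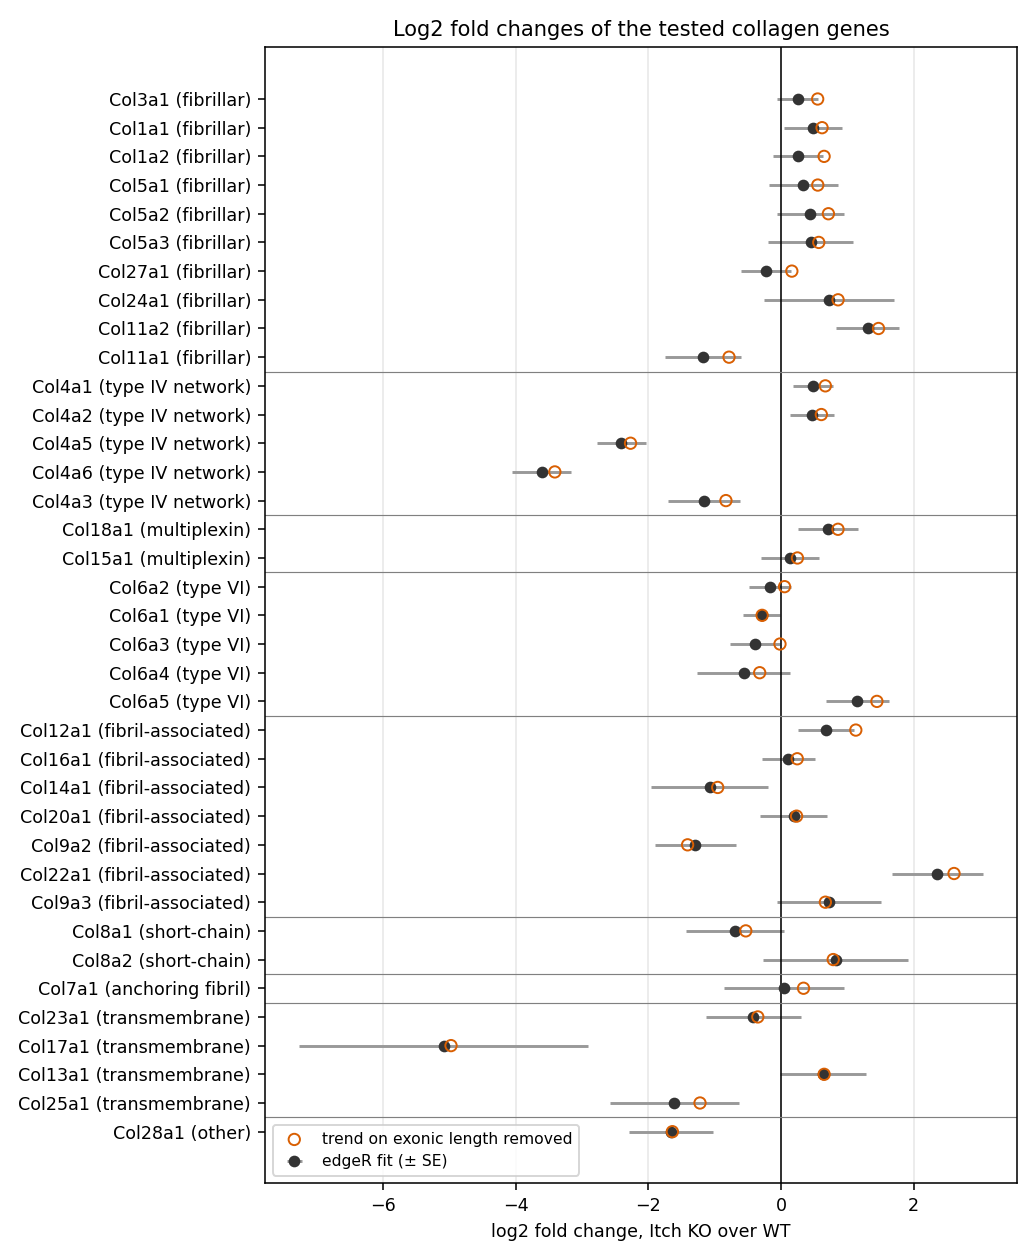
Log2 fold change of each tested collagen gene, Itch KO over WT, by class, with the standard error of the edgeR fit as bars and the value with the length trend removed as open circles. Col17a1, Col4a6 and Col4a5 have the most negative values, and Col17a1 has a standard error of 2.18.

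Fibrillar collagens had a summed level of 1713 and 965 CPM in WT versus 1274 and 2087 CPM in KO. The ranges overlapped, and KO replicate 2 was highest and WT replicate 2 lowest. Of the 10 tested genes 8 had a positive log2 fold change and 2 a negative one, with a median of 0.39, but the median was -0.03 without WT replicate 2 and -0.20 without KO replicate 2.

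Col1a1 and Col1a2 encode the chains of type I collagen, the main fibre protein of connective tissue. Col1a1 (ENSMUSG00000001506, chromosome 11, 94936224 to 94953042) was at 337 and 167 CPM in WT versus 271 and 433 CPM in KO, with a log2 fold change of 0.48 and an SE of 0.44. Col1a2 was at 341 and 191 CPM against 255 and 379 CPM, with a log2 fold change of 0.25. In each case 1 KO library lay between the WT libraries, so the groups overlapped. DESeq2 called Col1a1 higher without WT replicate 1 (log2 fold change 1.06, adjusted p = 0.0276). The ratio of Col1a1 to Col1a2 was 0.988 and 0.878 in WT versus 1.07 and 1.14 in KO, a separated but small log2 difference of 0.24.

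Col3a1, the type III chain of the fine reticular fibres of gut wall and vessels, had the highest level per kilobase of transcript of all collagens, with a mean of 69.8 CPM per kilobase against 54.5 for Col1a2, 51.7 for Col6a2, 50.9 for Col1a1 and 50.5 for Col4a1. These neighbours differed by less than the spread between libraries of a group. Its CPM was 438 and 272 in WT versus 374 and 469 in KO, with both groups overlapping and a log2 fold change of 0.25. The type V genes, whose chains start and thin the type I fibrils, also had KO replicate 2 highest. Col5a1 was at 241 and 112 CPM in WT versus 147 and 297 CPM in KO, and Col5a2 at 209 and 98.2 against 140 and 277. Col5a3 was at 74.7 and 45.5 against 37.2 and 126, so that KO replicate 1 was the lowest library there. The 3 log2 fold changes lay between 0.33 and 0.45.

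Col27a1 and Col24a1, fibrillar collagens known mainly from cartilage and bone, were less abundant. Col27a1 was at 54.2 and 57.3 CPM in WT versus 31.2 and 63.6 CPM in KO, and Col24a1 at 8.75 and 9.05 against 3.56 and 25.7. The WT libraries were close to each other for both genes while the KO libraries lay on either side of them. The type XI genes, which encode minor fibril chains, differed in direction, and they are named because their groups did not overlap. Col11a2 was at 4.37 and 6.44 CPM in WT versus 12.0 and 14.8 CPM in KO (log2 fold change 1.31, SE 0.47), and edgeR gave an adjusted p of 0.246. Col11a1 had 5.23 and 6.68 CPM in WT versus 1.84 and 3.41 CPM in KO, a log2 fold change of -1.17 with an SE of 0.57 and an adjusted p of 0.332 in edgeR.

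Type VI collagen forms beaded filaments that link cells and fibrils, and its chains are encoded by Col6a1, Col6a2 and Col6a3 or the related Col6a4 to Col6a6. Col6a1 was at 224 and 152 CPM in WT versus 129 and 179 CPM in KO, Col6a2 at 255 and 178 against 148 and 237, and Col6a3 at 231 and 135 against 106 and 174. All 3 overlapped between groups, with KO replicate 1 lowest, and their log2 fold changes were -0.29, -0.17 and -0.39. Each of the 3 became positive in some fit without WT replicate 1, and Col6a2 was 0.05 with the length trend removed.

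Col6a4 was at 22.1 and 92.4 CPM in WT versus 34.9 and 42.8 CPM in KO, so the WT libraries stood on either side of the KO libraries. Col6a5, named because its groups did not overlap, was at 4.27 and 3.34 CPM in WT versus 8.72 and 8.16 CPM in KO, with a log2 fold change of 1.15, an SE of 0.47 and an adjusted p of 0.281 in edgeR. Over the 5 tested type VI genes the median log2 fold change was -0.29, with 1 positive and 4 negative. Within each library, the summed fibrillar level over that of Col6a1, Col6a2 and Col6a3 was 2.41 and 2.07 in WT versus 3.33 and 3.54 in KO. That ratio was separated between groups, with a log2 difference of 0.62, although each sum overlapped.

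Fibril-associated collagens sit on the surface of fibrils and tune their spacing. Col12a1, found where tissue bears tension, was at 133 and 112 CPM in WT versus 120 and 271 CPM in KO, with a log2 fold change of 0.67 and an SE of 0.42. KO replicate 2 was the high library and KO replicate 1 lay between the WT libraries: the log2 fold change was 1.13 in DESeq2 without KO replicate 1 (adjusted p = 0.0035) and between -0.05 and 1.53 over all fits with a library left out. Col14a1 was at 127 and 55.8 CPM against 13.8 and 72.8 CPM, a log2 fold change of -1.07 with an SE of 0.88, and the low value was that of KO replicate 1 alone. Without KO replicate 2 DESeq2 called it lower (log2 fold change -2.75, adjusted p = 7.54e-04), as did the length-corrected edgeR fit without WT replicate 2 (log2 fold change -1.43, adjusted p = 0.0173).

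Col16a1 was at 128 and 85.6 CPM in WT versus 77.4 and 152 CPM in KO, and Col20a1 at 20.3 and 25.3 against 15.2 and 36.9. Both overlapped, with the 2 KO libraries outside the WT range on opposite sides. Col22a1, a collagen of tissue junctions such as that of muscle and tendon, had the largest positive log2 fold change of the tested collagens. It was at 0.747 and 1.63 CPM in WT versus 4.42 and 7.95 CPM in KO, from 7 and 20 counts against 36 and 77. The log2 fold change was 2.36 with an SE of 0.69, and the adjusted p was 0.194 in edgeR and 0.148 in DESeq2. Col9a2, a chain of cartilage type IX collagen, was at 8.86 and 14.1 CPM against 2.95 and 6.4 CPM, with a log2 fold change of -1.29 and an adjusted p of 0.33 in edgeR. These 2 genes are named because their groups did not overlap. Col9a3 overlapped at 1.17 to 4.85 CPM.

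Col17a1, Col23a1, Col13a1 and Col25a1 encode collagens that span the cell membrane. Col17a1 (ENSMUSG00000025064, chromosome 19, 47646344 to 47692094, minus strand) encodes the hemidesmosome protein that ties basal cells of stratified epithelium to the basement membrane. It was at 103 CPM in WT replicate 1 and at 0.896 CPM in WT replicate 2, and at 1.47 and 1.55 CPM in KO. The groups overlapped, since only WT replicate 1 was high. The log2 fold change of -5.09 had an SE of 2.18 (edgeR adjusted p = 0.298), and DESeq2 called it lower with an adjusted p of 0.0041. Without WT replicate 1 the edgeR log2 fold change was 0.76 with an adjusted p of 0.642.

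The squamous markers had the same library pattern as Col17a1. Krt5, a keratin of basal squamous cells, was at 138 CPM in WT replicate 1 and at 0.244, 0.86 and 3.10 CPM in WT replicate 2, KO replicate 1 and KO replicate 2. All 10 squamous markers were highest in WT replicate 1, Dsg3 and Ivl were at 0 in WT replicate 2, and Ivl also in KO replicate 1. The part of squamous tissue in the level of Col17a1 was not tested. Col7a1, which forms the anchoring fibrils under the same kind of epithelium, was at 32.4 CPM in WT replicate 1, 7.01 CPM in WT replicate 2, and 11.3 and 29.2 CPM in KO. Col7a1 was therefore also high in KO replicate 2, where the squamous markers summed to 36.7 CPM. Its log2 fold change was 0.04, and the part of squamous tissue in its level was not tested.

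Among the remaining transmembrane genes, Col23a1 was at 29.9 and 74.8 CPM in WT versus 19.05 and 59.2 CPM in KO. Col13a1 and Col25a1 were below 10 CPM on average, ran from 4.48 to 14.8 CPM and from 1.84 to 14.0 CPM, and overlapped between groups. Col8a1, a short-chain collagen of vessel walls and of the membrane under endothelium, was at 62.4 and 99.2 CPM in WT versus 18.4 and 81.4 CPM in KO. The low library was KO replicate 1, and without KO replicate 2 DESeq2 called the gene lower (log2 fold change -2.15, adjusted p = 0.0019). Col8a2 ran from 1.97 CPM in KO replicate 1 to 18.5 CPM in KO replicate 2, with the WT libraries at 5.55 and 6.03 CPM between them. Col28a1, a collagen described around peripheral nerve and glia, was at 27.3 and 15.7 CPM in WT versus 3.93 and 9.61 CPM in KO. Its groups were separated, with a log2 fold change of -1.66, an SE of 0.63, and an adjusted p of 0.261 in edgeR and 0.112 in DESeq2. Markers of enteric glia and neurons, 8 genes with none at 0, summed to 162 and 224 CPM in WT versus 152 and 267 CPM in KO, and their part in the level of Col28a1 was not tested.

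Over the 20 tested genes outside the fibrillar and basement membrane classes, 9 log2 fold changes were positive and 11 negative, with a median of -0.23 that became 0.10 without WT replicate 1 and 0.15 without KO replicate 1. The 5 genes with too few counts to test were Col2a1, Col4a4, Col6a6, Col10a1 and Col26a1, none above 1.14 CPM in any library. Col2a1, the main cartilage collagen, had 1 count in WT replicate 2 and 0 in the other libraries.

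The KO libraries differed from each other in a way shared by most collagens, and the WT libraries did so less. KO replicate 2 was above KO replicate 1 for 35 of the 37 tested collagens, with a median ratio of 1.91, whereas this held for 45.5% of all tested genes, with a median ratio of 0.97. The exceptions were Col4a3 and Col6a5. WT replicate 1 was above WT replicate 2 for 21 of 37, with a median ratio of 1.28, against 49.5% of all tested genes and a median ratio of 0.998. Among the 20 tested genes outside the fibrillar and basement membrane classes this held for 10. The summed collagen level was 4181 and 2740 CPM in WT versus 2834 and 4800 CPM in KO, so each group held 1 library of high and 1 of low summed level. As shares of all counts these sums were 0.405%, 0.276%, 0.282% and 0.491%.

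Fibroblast and endothelial markers were ordered in the same way, and within KO so were other lists outside epithelium. All 8 fibroblast markers and all 8 endothelial markers were higher in KO replicate 2 than in KO replicate 1, with median ratios of 1.79 and 2.02, while 0 of 10 colonic epithelial markers were, with a median ratio of 0.76. Smooth muscle markers differed less between the KO libraries, with 7 of 8 higher in KO replicate 2 and a median ratio of 1.16. All 4 lymphatic endothelial and all 4 pericyte markers were higher in KO replicate 2, with median ratios of 2.92 and 1.97. So were all 5 leukocyte markers and the 3 tested adipocyte markers, with median ratios of 1.35 and 1.31. Of the 8 markers of enteric glia and neurons 7 were higher in KO replicate 2, with a median ratio of 2.69. Only 1 of them was higher in WT replicate 1 than in WT replicate 2. Fibroblast markers summed to 713 and 522 CPM in WT versus 509 and 858 CPM in KO, and none was at 0. Endothelial markers summed to 587 and 404 against 505 and 923 CPM, also with none at 0. The part of the cell types of these lists in the collagen levels was not tested. Col4a5 and Col4a6, low in both KO libraries, followed the common order within KO, at 1.91 and 1.83 times higher levels in KO replicate 2.

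**Figure D4:**
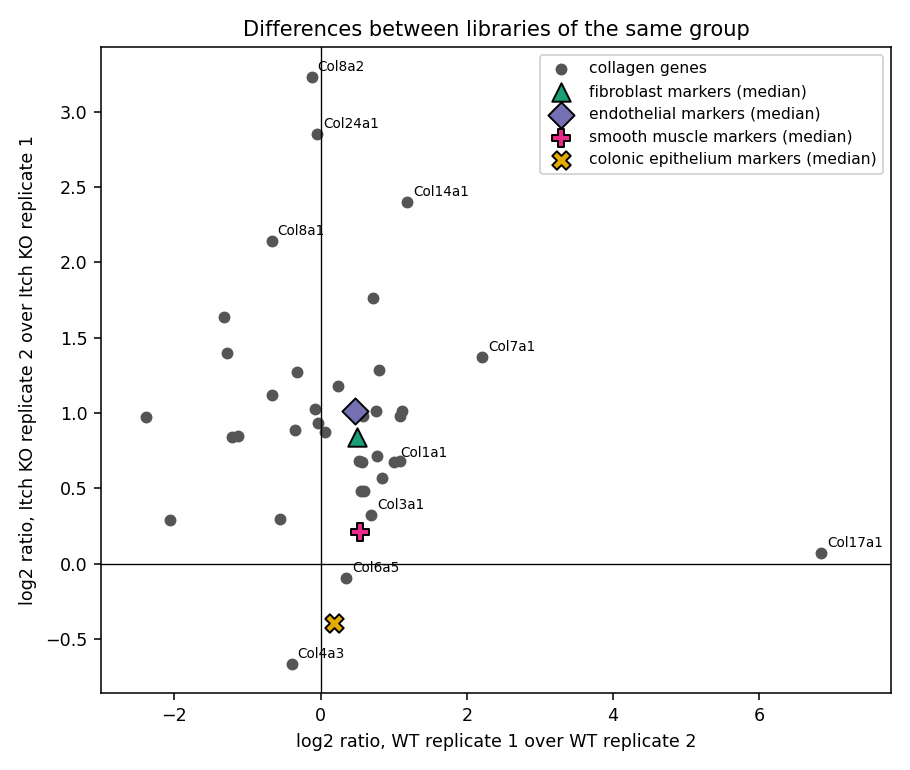
Log2 ratio between the libraries of each group for the tested collagen genes (points), with the medians of 4 marker lists; the x axis compares WT replicates and the y axis KO replicates. Of the 37 collagens 35 lie above 0 on the y axis, as do the fibroblast and endothelial medians, while the colonic epithelial median lies below 0.

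Collagen transcripts are long, and log2 fold changes were lower for longer genes across the whole table. The exonic length of the tested collagens had a median of 7464 bases, with a range of 3095 to 15228, against a median of 4027 over all tested genes, and 19 of the 37 tested collagens were in the longest of 5 equal bins of gene length. From the shortest to the longest bin, the median log2 fold change of all tested genes was 0.27, 0.13, 0.04, -0.08 and -0.28. The tested collagens had a median of 0.13, above that of the bins in which most of them lay. It was -0.06 without WT replicate 2 and -0.58 without KO replicate 2. With the trend of each library on length removed, the median was 0.25 for all collagens, 0.59 for the fibrillar class, 0.25 for basement membrane collagens and 0.02 for the others. Col27a1 moved from -0.23 to 0.16, and Col12a1, the longest, from 0.67 to 1.13 with an adjusted p of 0.161 in edgeR.

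**Figure D5:**
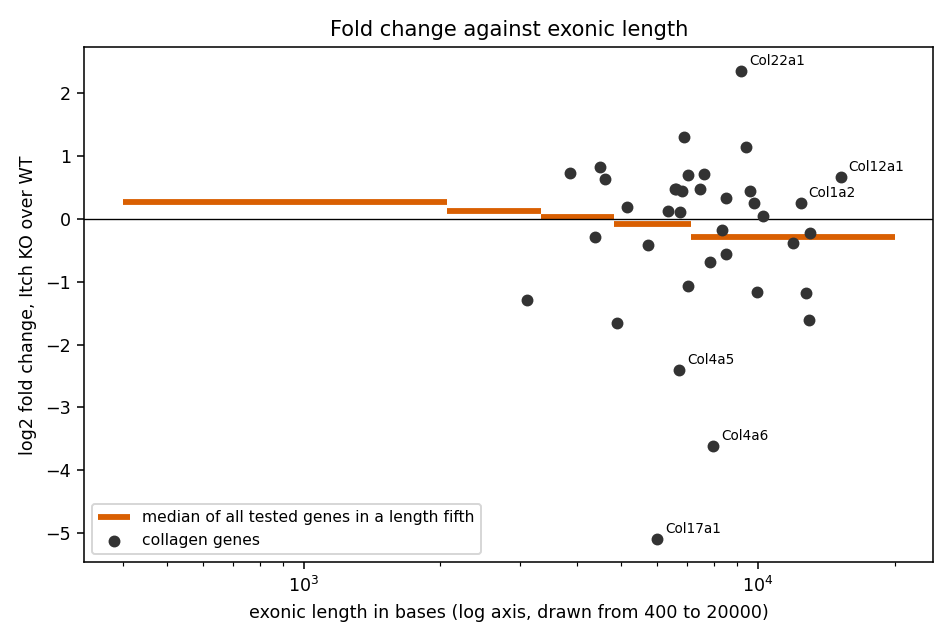
Log2 fold change of the tested collagen genes (points) against exonic length in bases on a log axis, with the median of all tested genes in each of 5 length bins (bars). The bars step down from 0.27 to -0.28, and the collagens lie mainly in the 2 longest bins.

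Genes that fold, cut, bind and degrade collagen were read from lists made by function. Of 18 enzymes and chaperones of collagen maturation in the cell, 15 had a positive log2 fold change and 3 a negative one, with a median of 0.43. None passed edgeR's adjusted test, and 2 were higher at an unadjusted p below 0.05, a share close to the 10.2% of all tested genes. DESeq2 called 0 of the 18, beside 5.47% of all tested genes higher and 5% lower. The 2 genes were P4ha1, a prolyl hydroxylase subunit, at 84.1 and 70.6 CPM in WT versus 107 and 153 CPM in KO, and Plod3, a lysyl hydroxylase and glycosyltransferase, at 72.2 and 67.3 against 102 and 130. The 3 most abundant members were Mia3, an exit factor for large cargo, at 236 and 263 against 227 and 179 CPM, P4hb at 202 and 173 against 247 and 211, and the collagen chaperone gene Serpinh1 at 123 and 77.7 against 118 and 162.

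Of 12 tested genes for propeptide removal and cross-linking, 10 were positive and 2 negative, with a median of 0.23 and none with an unadjusted p below 0.05. Bmp1, the procollagen C-proteinase, was at 87.0 and 84.0 CPM in WT versus 57.1 and 140 CPM in KO, and Pcolce, its enhancer, at 88.9 and 53.4 against 58.6 and 94.6. Lox, the lysyl oxidase that starts cross-linking, was at 64.1 and 17.0 CPM in WT versus 72.5 and 171 CPM in KO. Its groups were separated by a narrow margin, with a log2 fold change of 1.59 and an SE of 0.78.

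Among 12 tested fibril-binding matrix genes, 5 were positive and 7 negative, with a median of -0.12, and 2 were lower at an unadjusted p below 0.05, beside 9.52% of all tested genes. Ogn, a small leucine-rich proteoglycan, was at 130 and 86.9 CPM in WT versus 32.4 and 47.9 CPM in KO, with a log2 fold change of -1.43. Its adjusted p was 0.14 in edgeR, 0.0015 in DESeq2 and 0.0309 in edgeR with the length trend removed, a fit that called 0 of all genes once either KO library was left out. Tnxb, the tenascin that bridges collagen fibrils, was at 247 and 153 against 47.9 and 100 CPM, with a log2 fold change of -1.43 and an adjusted p of 0.213 in edgeR and 0.0092 in DESeq2. Ogn, Tnxb and Postn had separated groups, lower in KO, as had 26% of all tested genes. The fibronectin gene Fn1, at 449 and 187 against 241 and 337 CPM, and Bgn, at 177 and 114 against 161 and 193, overlapped. Postn, which encodes periostin, was at 272 and 182 against 123 and 157 CPM.

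The partners of type IV collagen in basement membranes, laminins, nidogens and heparan sulfate proteoglycans, had 1 positive and 14 negative log2 fold changes among 15 genes, with a median of -0.32. With the length trend removed 6 were positive and the median was -0.16. Lama1 was the positive gene, at 13.0 and 4.56 CPM in WT versus 26.8 and 58.0 CPM in KO, with a log2 fold change of 2.28 and an SE of 0.70. Lama3 was at 278 and 168 against 120 and 75.3 CPM and Agrn at 237 and 218 against 144 and 141. At an unadjusted p below 0.05, Lama1 was higher and Lama3 and Agrn lower, beside 10.2% and 9.52% of all tested genes. DESeq2 called these 3, with an adjusted p of 0.0152 for Lama1, 0.0091 for Lama3 and 0.0015 for Agrn. It called 5.47% of all tested genes higher and 5% lower. The most abundant members were Hspg2, which encodes perlecan, at 300 and 184 against 151 and 233 CPM, Lamb3 at 246 and 206 against 205 and 135, and Agrn. None of the 15 passed edgeR's adjusted test.

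Of 9 tested collagen receptor genes 4 were positive and 5 negative, with a median of -0.01. Itga11, an integrin chain of fibroblasts that binds fibrillar collagen, was at 18.99 and 15.9 CPM in WT versus 2.58 and 5.89 CPM in KO, a log2 fold change of -2.03 with an SE of 0.58. Lair1, an inhibitory collagen receptor of leukocytes, was at 21.7 and 12.9 against 34.6 and 71.6 CPM, a log2 fold change of 1.62 with an SE of 0.49. These were the 1 lower and 1 higher receptor gene at an unadjusted p below 0.05, beside 9.52% and 10.2% of all tested genes, and edgeR gave an adjusted p of 0.191 and 0.203 against 0.0292 and 0.0299 in DESeq2. The 5 leukocyte markers, none at 0, summed to 216 and 190 CPM in WT versus 534 and 765 CPM in KO, and their part in the level of Lair1 was not tested. The most abundant receptors overlapped or differed little, with Itgb1 at 205 to 251 CPM, Ddr1 at 189 and 192 against 176 and 133, and Ddr2 at 208 and 125 against 81.5 and 165.

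Of 7 enzymes that cleave collagen 6 were positive and 1 negative, with a median of 0.44, and 3 were higher at an unadjusted p below 0.05, beside 10.2% of all tested genes. Mmp8, the neutrophil collagenase, was at 1.71 and 0.163 CPM in WT versus 47.8 and 112 CPM in KO, a log2 fold change of 6.48 with an SE of 1.08. Mmp9, a gelatinase that is also stored in neutrophils, had 11.3 and 5.38 CPM in WT versus 84.3 and 183 CPM in KO, a log2 fold change of 4.01. Mmp13, a collagenase of stromal cells, had 23.6 and 10.3 versus 83.7 and 191 CPM, a log2 fold change of 3.03. These 3 and Mmp14 had separated groups, higher in KO, and Fap was separated and lower, against 30% and 26% of all tested genes. None of the 3 passed edgeR's adjusted test, with an adjusted p of 0.127 for Mmp8, 0.123 for Mmp9 and 0.137 for Mmp13. With the length trend removed edgeR gave an adjusted p of 0.0779, 0.03 and 0.0825 in the same order, and without either KO library that fit called 0 of all genes. DESeq2 called all 3 higher, with an adjusted p of 8.59e-12, 1.14e-11 and 3.03e-06, beside 5.47% of all tested genes. The most abundant members, Mmp2 at 147 and 106 against 99.3 and 182 CPM and Mmp14 at 132 and 91.8 against 140 and 164 CPM, differed less. These lists were made with earlier results of the same libraries known, so their directions are no independent evidence.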

How the data were processed

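The values analysed were raw gene counts, which the authors deposited as a table for each library. Tools named in the submitters' processing notes were HTSeq 0.6.1, SAMtools 0.1.19, TopHat2 and CASAVA 1.8.2, and the builds were GRCm38 and mm10. Whether counting used strand is not given in the sources used here. It is therefore not known whether reads of overlapping genes on opposite strands, such as Col4a3 and C430014B12Rik (563 shared exonic bases), were told apart. Genes present in the tables of all 4 libraries, 19308 in number, were analysed. HTSeq lines of unassigned reads were left out, and reads in no gene made up 18.2% to 23% of the totals where a file gave them. No gene held more than 9389 counts, so counts look compressed at the upper end, and fold changes of dense genes, among them 5 collagens above percentile 90 of counts per exonic kilobase, may be understated.

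Counts were tested with edgeR 4.0.16 in R 4.3.3 (quasi-likelihood, filterByExpr at a minimum count of 10, TMM, robust, group as the only term, Benjamini-Hochberg at 0.05, two-sided). The standard error is the log2 fold change over the root of F. Each gene had 2 residual degrees of freedom, to which the fit added information on variance shared across genes. The biological coefficient of variation was 34.8%. CPM used TMM library sizes, and levels between genes were set per kilobase of the GENCODE M21 principal transcript. DESeq2 1.42.0, limma voom 3.58.1, other normalizations, other filters, other edgeR estimators, a replicate block, a loess length correction and each library left out were alternatives. Length correction or DESeq2 together with a library left out was added after seeing the data. The code was tested on simulated counts.

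Members, classes and lists were chosen with earlier results of these data known. The rule for named genes took every collagen, with values in each library at a mean of at least 10 CPM, and the 3 most abundant genes of each function list. Other genes, and collagens below that mean, were named after their values were seen.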

Additional observations from a re-analysis of the deposited data

How the results depend on the processing

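Direction held under every alternative for 15 of the 37 tested collagens, among them Col4a5 and Col4a6. The other 22 changed sign when a library was left out, and 2 of them also with all libraries, Col27a1 at 0.16 and Col6a2 at 0.052 with the length trend removed. These counts are given for the collagens only, with no share over all tested genes beside them. Over the 4 edgeR fits that each left out a library, the ranges of log2 fold change were Col3a1 -0.059 to 0.65, Col1a2 -0.11 to 0.75, Col5a1 -0.26 to 1.01, Col5a2 -0.13 to 1.11, Col5a3 -0.69 to 1.07, Col27a1 -0.84 to 0.19, Col24a1 -1.32 to 1.53, Col15a1 -0.46 to 0.58. They were Col6a2 -0.55 to 0.13, Col6a1 -0.55 to 0.033, Col6a3 -0.79 to 0.067, Col6a4 -1.23 to 0.81, Col12a1 -0.035 to 1.14, Col16a1 -0.46 to 0.51, Col20a1 -0.58 to 0.69 for the next group, and Col9a3 -0.14 to 1.51, Col8a1 -2.13 to 0.0096, Col8a2 -1.55 to 1.67, Col7a1 -0.80 to 1.56, Col23a1 -1.46 to 0.39, Col17a1 -6.08 to 0.76, Col25a1 -2.33 to 0.036 for the rest. Without WT replicate 1, the sign also turned in DESeq2 for Col6a2 at 0.11, Col6a1 at 0.0054, Col6a3 at 0.038, Col17a1 at 0.74 and in the length-corrected fit for Col27a1 at 0.11, Col6a2 at 0.33, Col6a1 at 0.032, Col6a3 at 0.40, Col17a1 at 0.87. Without WT replicate 2, the sign also turned in DESeq2 for Col3a1 at -0.088, Col1a2 at -0.14, Col5a1 at -0.15, Col5a2 at -0.034, Col15a1 at -0.23, Col6a4 at 0.78, Col16a1 at -0.19, Col7a1 at -0.71, Col23a1 at 0.36, Col25a1 at 0.0042 and in the length-corrected fit for Col27a1 at 0.22, Col15a1 at -0.086, Col6a4 at 1.06, Col16a1 at -0.022, Col7a1 at -0.38, Col23a1 at 0.45, Col25a1 at 0.45. Without KO replicate 1, the sign also turned in DESeq2 for Col27a1 at 0.17, Col6a2 at 0.11, Col23a1 at 0.16 and in the length-corrected fit for Col27a1 at 0.51, Col6a2 at 0.27, Col6a3 at 0.21, Col8a1 at 0.13, Col23a1 at 0.20. Without KO replicate 2, the sign also turned in DESeq2 for Col1a2 at -0.078, Col5a1 at -0.28, Col5a2 at -0.15, Col5a3 at -0.71, Col24a1 at -1.33, Col15a1 at -0.48, Col12a1 at -0.050, Col16a1 at -0.48, Col20a1 at -0.60, Col9a3 at -0.14, Col8a2 at -1.57, Col7a1 at -0.82 and in the length-corrected fit for Col5a3 at -0.44, Col24a1 at -1.02, Col15a1 at -0.24, Col16a1 at -0.21, Col20a1 at -0.42, Col9a3 at -0.081, Col8a2 at -1.44, Col7a1 at -0.36. The cause was not tested.

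In edgeR 0 collagens and 0 of all genes passed in either direction, also with a library left out. Over all genes DESeq2 called 891 higher and 815 lower, and the length-corrected fit 379 and 75. Without WT replicate 1 these counts were 787 and 318 in DESeq2 and 869 and 499 with the length trend removed. Without WT replicate 2 these counts were 568 and 245 in DESeq2 and 676 and 382 with the length trend removed. Without KO replicate 1 these counts were 646 and 549 in DESeq2 and 0 and 0 with the length trend removed. Without KO replicate 2 these counts were 178 and 319 in DESeq2 and 0 and 0 with the length trend removed. Of collagens, DESeq2 called 3 lower and the length-corrected fit 2 lower. DESeq2 called 2 higher and 2 lower without WT replicate 1, 0 and 3 without WT replicate 2, 1 and 2 without KO replicate 1, and 0 and 4 without KO replicate 2. The length-corrected fit called 2 lower without WT replicate 1, 4 lower without WT replicate 2, and 0 without either KO library. A replicate block, with the replicate number as a second term, gave an adjusted p of 0.263 for Col4a5 and Col4a6 in edgeR and called 0 collagens. Deviations of same-numbered libraries had a correlation of 0.0481 across genes, so the numbers share no visible pairing. The class medians moved by less than 1 SD of the spread between libraries, and their signs turned as given with each class. That SD was taken from the same libraries that were left out in turn. The size of the moves therefore says nothing about how stable the medians are. Depth limited the 10 tested collagens below 10 CPM and the 5 untested ones.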

Other observations

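Col9a1 and Col19a1 have collagen symbols but are not in the deposited list of WT replicate 1, so they entered no comparison. Col9a1 had 2 counts in WT replicate 2 and 0 and 4 in the KO replicates, and Col19a1 had 0, 0 and 2 counts there.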
